A study of Mus musculus with 12 samples.

Results

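Sumo2, Sumo3 and Ubb encode precursors of small proteins that cells attach to other proteins. The 3 genes were selected by symbol from the 32546 genes of a table of unique molecular identifiers (UMIs), with their levels in the 4 histological conditions already known. Sumo2 ranked 1 among 3956 genes by the change from fresh-frozen to fixed frozen sections. These genes averaged 10 UMIs or more per replicate, passed the test of this change and changed in the same direction in all 3 regions. Differences between conditions are therefore given for these genes as descriptions, without a test. Differences between hippocampal regions within a condition were tested.

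The data come from photo-isolation chemistry (PIC) on hippocampal sections of male ICR mice aged 8 weeks. In PIC, a caged reverse transcription primer binds poly(A) RNA in the section, and UV light uncages the cDNA in a chosen region only, here CA1, CA3 or the dentate gyrus (DG). Libraries were made by CEL-seq2, which reads a tag near the 3′ end of each molecule. Each of 12 libraries pooled 4 barcoded replicates of 1 region in 1 condition, so that region and library cannot be told apart within a condition. Each condition likewise had libraries of its own, so that differences between conditions and between libraries cannot be told apart either. Of the 4 conditions, the fresh-frozen ones were sections of unfixed tissue, permeabilized with HCl (0.1 N, 5 min) or with TE buffer (70 °C, 1 h). The others were frozen sections of tissue fixed in 4% paraformaldehyde (PFA) and paraffin sections of such tissue, both with TE. The conditions are called fresh-frozen HCl, fresh-frozen TE, PFA frozen and PFA paraffin below. The paper's protocol also post-fixes sections of every kind in PFA on the slide before permeabilization. The labels name CA3, whereas the design text of the series names CA2 in its place.

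Replicates held 127253 to 933756 UMIs in fresh-frozen HCl, 294445 to 1111804 in fresh-frozen TE, 52800 to 307145 in PFA frozen and 35932 to 223055 in PFA paraffin. Levels are given as CPM, the UMIs of a gene scaled to a replicate total of 1000000, and were not divided by gene length, since a molecule gives 1 tag. The summed CPM of 5 CA1 markers was highest in CA1, that of 5 CA3 markers in CA3 and that of 5 DG markers in DG in all 4 conditions. In CA1, 1 CA3 marker was at 0 in each condition, and 1 was at 0 in CA3 of PFA paraffin. In such bulk samples, fewer cells of a type and less RNA per cell cannot be told apart.

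SUMO proteins are joined to lysines of target proteins by an E1, E2 and E3 cascade, and SENP proteases both mature the precursors and remove SUMO again. SUMO2 and SUMO3 are close relatives that form chains. Ubb encodes a head-to-tail polyubiquitin precursor that is cut into single ubiquitins and is induced by heat and other stress, whereas Rps27a encodes ubiquitin fused to a ribosomal protein. In neurons, both modifiers are known to act at the nucleus and at synapses, and ubiquitin directs proteins to the proteasome.

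All 3 families have left copies in the mouse genome, and the sequences below are shown because the counting kept only reads with a single alignment. In the GENCODE M21 annotation of GRCm38, Ubb lies on chr11:62551171-62553213 (plus strand, 2 exons), Sumo2 on chr11:115523102-115536276 (minus strand, 4 exons) and Sumo3 on chr10:77606097-77618331 (plus strand, 4 exons). The first group is a run of 120 bases at the start of 1 ubiquitin repeat in the coding part of exon 2 of Ubb, beside the most similar stretch of 2 other transcripts. Capitals mark the bases that differ from Ubb.
Ubb (chr11:62552830-62552949, plus strand): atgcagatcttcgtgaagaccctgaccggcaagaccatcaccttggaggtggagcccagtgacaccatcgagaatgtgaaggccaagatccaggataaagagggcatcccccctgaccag
Ubb-ps (chr14:46084354-46084473, plus strand): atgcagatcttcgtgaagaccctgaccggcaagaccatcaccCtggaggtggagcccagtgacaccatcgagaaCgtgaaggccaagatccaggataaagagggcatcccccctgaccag
Gm8797 (chr3:5750904-5751023, plus strand): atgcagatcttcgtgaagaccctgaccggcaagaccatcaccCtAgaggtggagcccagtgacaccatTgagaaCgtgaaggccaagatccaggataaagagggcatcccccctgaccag
Ubb-ps is a processed copy, which the annotation calls Gm1821 and a transcribed processed pseudogene. It differed from Ubb at 2 of these 120 bases and Gm8797 at 4.

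The second group shows coding exon 2 of Sumo2, of 132 bases, beside 2 processed pseudogenes and the matching part of Sumo3. Capitals mark the bases that differ from Sumo2 in a placement without gaps.
Sumo2 (chr11:115534552-115534683, minus strand): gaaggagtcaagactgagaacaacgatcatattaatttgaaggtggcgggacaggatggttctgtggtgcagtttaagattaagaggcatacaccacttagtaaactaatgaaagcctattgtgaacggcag
Gm10241 (chr16:20176860-20176991, minus strand): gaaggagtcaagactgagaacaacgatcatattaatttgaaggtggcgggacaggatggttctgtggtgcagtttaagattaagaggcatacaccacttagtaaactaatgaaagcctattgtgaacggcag
Smt3h2-ps4 (chr1:14840004-14840135, minus strand): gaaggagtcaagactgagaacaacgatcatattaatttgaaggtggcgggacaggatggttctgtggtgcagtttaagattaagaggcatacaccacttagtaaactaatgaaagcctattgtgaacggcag
Sumo3 (chr10:77606339-77609940, plus strand, across exons): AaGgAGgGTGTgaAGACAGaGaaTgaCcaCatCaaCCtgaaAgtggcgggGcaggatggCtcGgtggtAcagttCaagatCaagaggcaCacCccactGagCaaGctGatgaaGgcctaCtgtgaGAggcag
Of the 16 pseudogene copies of Sumo2, 15 were compared over this exon. Of these, 8 differed at no more than 5 bases, among them 2 that were identical to it. Placed without gaps, Sumo3 differed at 38 of the 132 bases. The start of its line is shifted against Sumo2, so a gap there would lower this count. A read in this exon can separate Sumo2 from Sumo3 but not from the identical pseudogenes.

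The share of each transcript that can be told from its copies differed between the 3 genes. A window of 50 bases was called copied where an annotated transcript of another locus held the identical run. Of 1450 windows of the Ubb transcript (Ubb-201, 1499 bases) 61.03% were copied, and of 451 windows within its last 500 bases 61.64%. For Sumo2 (Sumo2-207, 1051 bases) 30.24% of windows were copied, and 8.204% of those within the last 500 bases. All copied windows of the last 500 bases ended within 100 bases of the 3′ end. There, 40% of windows ending 0 to 50 bases from the 3′ end and 34% of those ending 50 to 100 bases from it were copied. No window of Sumo3 (Sumo3-201, 2630 bases) was copied, 0 of 2581. The coding part of Sumo2 is followed by a 3′ UTR of 605 bases and that of Sumo3 by a 3′ UTR of 2073 bases. The stretches of Sumo2 held by its 16 pseudogenes end 566 to 625 bases before its 3′ end. The 3′ UTR of Ubb has 150 bases, so a tag near its 3′ end can reach the repeats. Windows cover annotated transcripts only, and the remaining genome was not analysed here.

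**Figure D1:**
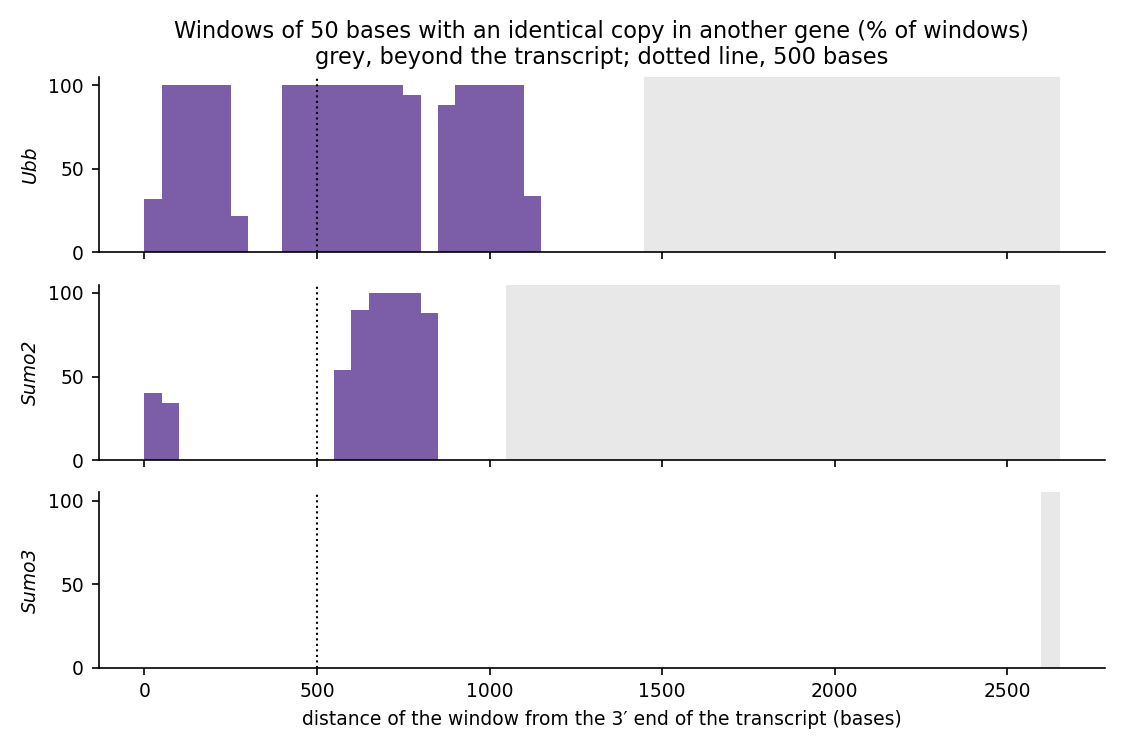
Share of 50-base windows (vertical axis, %) with an identical copy in another annotated gene, against the distance from the 3′ end in bases, for Ubb, Sumo2 and Sumo3. Each bar covers 50 window positions, grey marks the region beyond the transcript, and the dotted line stands at 500 bases. Copied windows of Ubb begin at the 3′ end. Those of Sumo2 lie mostly beyond 500 bases but also in the last 100 bases, and Sumo3 has 0.

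Copies with at least 80% identity over at least 200 bases were found in 17 genes for Sumo2, 3 for Sumo3 and 34 for Ubb, leaving out other precursor genes of the same families. Of these, 16, 3 and 30 were annotated as pseudogenes. The copies of Sumo2 with a row in the table held 1 to 3 UMIs, except Samd8, a gene with a Sumo2-like run of 532 bases at 92.7% identity on the opposite strand, which held 3161 UMIs. As counting did not use strand, a read from either gene is assigned by position alone. The copies of Ubb included 9 genes with at least 10 UMIs, led by Ubb-ps with 1922 UMIs, against 151 for Ubb itself. The others were Kxd1 (435 UMIs), Gm11808 (192), Rps27a-ps3 (111), Gm7331 (27), Gm8797 (22), Gm9354 (16), Gm11517 (11) and Gm13215 (10). Ubb-ps was 98.5% identical to Ubb over 685 bases and Gm8797 98.2% over 384 bases that reach the 3′ end. Sumo3 shares its locus and strand with Gm49325, which was not analysed here and has no row in the table, and reads in shared exons are ambiguous. The longest shared run, of 346 bases, ends 2184 bases before the 3′ end of Sumo3.

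Sumo3 was found in all 48 replicates with 1580 UMIs in sum, Sumo2 in 39 with 363 UMIs and Ubb in 42 with 151 UMIs. A 6-base UMI allows 4096 different tags per gene, and the highest count in a replicate was 34 for Sumo2, 139 for Sumo3 and 15 for Ubb, at most 3.39% of the tags possible. Intervals of ratios given below cover counting error only.

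Sumo2, a SUMO precursor of the chain-forming pair, was scarce in fresh-frozen TE sections in every region. In CA1 the 4 replicates held 1.15, 3.01, 2.70 and 2.70 CPM, in CA3 0, 1.80, 3.22 and 3.91 CPM, and in DG 4.07, 3.41, 0 and 3.40 CPM. No replicate there rested on more than 3 UMIs. In fresh-frozen HCl sections, CA3 stood at 15.0, 12.9, 11.1 and 17.8 CPM and CA1 at 2.74, 3.28, 6.90 and 23.6 CPM. The DG held 1 UMI in all, giving 2.84 CPM in 1 replicate and 0 in 3, where 3 UMIs over the 4 replicates would be 1.482 CPM. CA3 and DG did not overlap, and CA1 lay across the range of CA3 through its highest replicate, the shallowest of fresh-frozen HCl, with 3 UMIs.

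The PFA frozen sections had the highest Sumo2 levels. CA1 replicates held 261, 138, 213 and 166 CPM, CA3 replicates 306, 240, 157 and 322 CPM, and DG replicates 52.2, 61.9, 116 and 91.7 CPM. Both CA regions lay above every DG replicate. The level stayed high in the CA1 library of PFA paraffin, at 149, 54.0, 212 and 334 CPM, from 37 UMIs. It was near the floor in CA3, at 8.27, 0, 20.9 and 0 CPM, and in DG, at 6.78, 8.89, 0 and 0 CPM, from 2 UMIs each, so that paraffin Sumo2 was concentrated in 1 of 3 libraries.

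By group mean, Sumo2 was ordered from PFA frozen CA3 (256 ± 75.2 CPM, SD, n = 4) through PFA frozen CA1 (195 ± 53.9), PFA paraffin CA1 (187 ± 117) and PFA frozen DG (80.3 ± 28.9) to fresh-frozen HCl CA3 (14.2 ± 2.88). The first 3 groups overlapped in their replicates, as did PFA paraffin CA1 with PFA frozen DG. The other 7 groups had means of 0.71 to 9.12 CPM with overlapping replicates. From fresh-frozen TE to PFA frozen the log2 fold change over the regions was 6.03 ± 0.26. Here and below, ± after a log2 fold change gives an approximate SE, the change divided by the square root of its F statistic. This value can fall below the counting error where UMIs are few. The ratio of pooled CPM was 80.6 (95% interval 35.4 to 226) in CA1, 111 (52 to 283) in CA3 and 31.8 (12.9 to 101) in DG. From PFA frozen to PFA paraffin the log2 fold change was −2.03 ± 0.27. The ratio was 0.968 (0.636 to 1.45) in CA1, 0.027 (0.00323 to 0.1) in CA3 and 0.0453 (0.00537 to 0.17) in DG. The mean fall therefore came from CA3 and DG, as the CA1 ratio was close to 1. Fresh-frozen HCl over TE gave 1.45 ± 0.44, with a ratio of 6.51 (2.93 to 17.1) in CA3 and intervals that include 1 in CA1 and DG.

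Sumo3, the other gene of the pair, had its highest mean in fresh-frozen TE in every region, where Sumo2 was low. Replicates there stood at 133, 112, 107 and 113 CPM in CA1, 119, 125, 82.6 and 117 CPM in CA3, and 155, 153, 139 and 122 CPM in DG. In fresh-frozen HCl the replicates were at 52.0, 27.9, 57.5 and 31.4 CPM in CA1, 51.5, 42.8, 49.4 and 54.7 CPM in CA3, and 53.9, 69.8, 81.2 and 92.1 CPM in DG. No HCl replicate reached a TE replicate of its own region. PFA frozen sections held 101, 38.7, 59.7 and 18.4 CPM in CA1, 91.7, 91.8, 78.3 and 37.9 CPM in CA3, and 127, 111, 78.4 and 64.2 CPM in DG. PFA paraffin sections held 21.3, 18.0, 28.3 and 139 CPM in CA1, 41.4, 90.7, 41.8 and 50.1 CPM in CA3, and 74.6, 44.5, 89.7 and 62.2 CPM in DG. The spread within fixed groups was wide, and the value of 139 CPM rested on 5 UMIs.

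Group means of Sumo3 ran from 142 ± 15.1 CPM (SD, n = 4) in fresh-frozen TE DG to 42.2 ± 14.7 in fresh-frozen HCl CA1, with each neighbour in the order overlapping the next. The log2 fold change was −1.29 ± 0.12 for fresh-frozen HCl over TE, −0.73 ± 0.16 for PFA frozen over fresh-frozen TE and −0.51 ± 0.27 for PFA paraffin over PFA frozen. The ratio of pooled CPM for HCl over TE was 0.397 in CA1, 0.447 in CA3 and 0.512 in DG, below 1 in all 3 regions. For PFA frozen over fresh-frozen TE the ratio was 0.444 (0.274 to 0.685) in CA1, 0.733 (0.5 to 1.04) in CA3 and 0.671 (0.515 to 0.866) in DG. The paraffin ratios of 0.723 to 0.824 had intervals that include 1.

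Ubb, the polyubiquitin precursor, was low throughout. Fresh-frozen HCl had 15.0, 21.3, 17.2 and 15.7 CPM in CA1, 3.22, 9.64, 3.70 and 13.7 CPM in CA3, and 0, 1.55, 2.54 and 4.19 CPM in DG. Every CA1 replicate there lay above every CA3 and DG replicate. In fresh-frozen TE the replicates had 4.59, 4.52, 4.05 and 5.40 CPM in CA1, 4.42, 1.80, 4.29 and 3.91 CPM in CA3, and 8.13, 3.41, 1.68 and 0 CPM in DG. The 3 regions overlapped. PFA frozen had 14.5, 33.2, 25.6 and 36.9 CPM in CA1, 20.4, 35.3, 31.3 and 18.9 CPM in CA3, and 7.45, 19.5, 8.25 and 9.17 CPM in DG. PFA paraffin had 0, 36.0, 28.3 and 55.7 CPM in CA1, 24.8, 40.3, 20.9 and 0 CPM in CA3, and 6.78, 0, 0 and 31.1 CPM in DG. No paraffin replicate held more than 4 Ubb UMIs, so differences of a few CPM were not detectable there.

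Ubb group means ran from 30.0 ± 23.1 CPM (SD, n = 4) in PFA paraffin CA1 to 2.07 ± 1.76 in fresh-frozen HCl DG. Fresh-frozen HCl CA1, at 17.3 ± 2.81, overlapped the 6 fixed groups but lay above all replicates of the other fresh-frozen groups. From fresh-frozen TE to PFA frozen the log2 fold change was 2.41 ± 0.38, with ratios of 6.28 (2.58 to 15.3) in CA1, 8.39 (3.39 to 21) in CA3 and 3.55 (1.22 to 11) in DG. Fresh-frozen HCl over TE gave 1.01 ± 0.35, with a ratio of 3.87 (1.99 to 8.08) in CA1 and 0.556 (0.119 to 2.19) in DG. PFA paraffin over PFA frozen gave −0.40 ± 0.47.

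**Figure D2:**
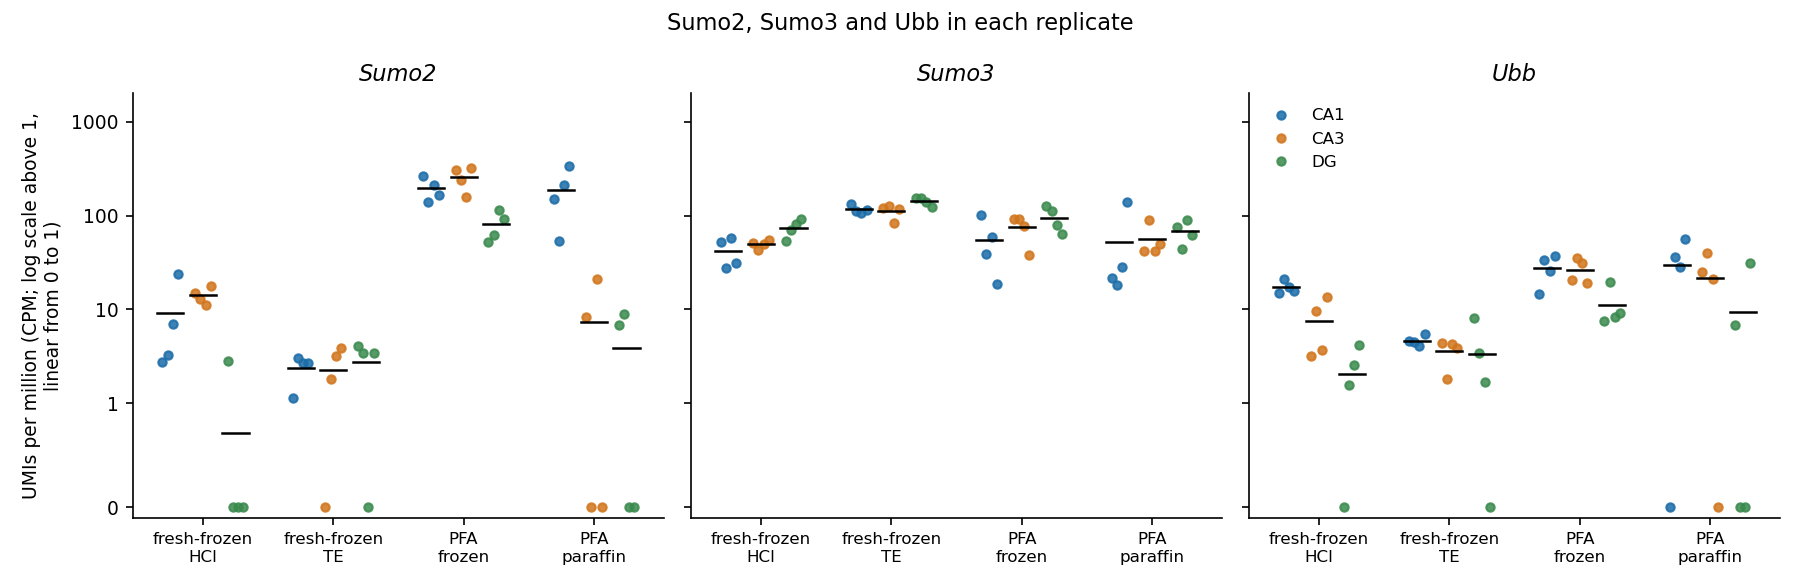
CPM of Sumo2, Sumo3 and Ubb (vertical axis, log scale above 1 and linear from 0 to 1) in each of the 48 replicates by condition, with CA1 in blue, CA3 in orange and DG in green. Points are replicates and lines the mean of 4. Sumo2 spans 0 to 334 CPM and is high in PFA frozen sections and in paraffin CA1, whereas Sumo3 stays between 18.0 and 155 CPM.

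These values stand against a background in which many genes differed between conditions. In the same fits 30.6% of genes tested passed an adjusted p under 0.05 for fresh-frozen HCl over TE (16.2% higher, 14.3% lower), 48.7% for PFA frozen over fresh-frozen TE (15.8% higher, 32.9% lower) and 28% for PFA paraffin over PFA frozen (13.7% higher, 14.4% lower). The median log2 fold change of all genes was 0.10, −0.39 and 0.05 in turn, and the alternatives gave 0.08 to 0.26, −0.45 to −0.08 and 0.06 to 0.46. Against those medians, Sumo2 and Ubb lay above and Sumo3 below in the second comparison. The 325 processed pseudogenes tested there had a median of 1.86, with 182 higher and 65 lower at the same threshold. Processed pseudogenes took 0.225% to 0.59% of UMIs in fresh-frozen replicates and 0.99% to 1.99% in fixed ones. Their part in the levels of Sumo2 and Ubb was not tested.

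The question of the region comparisons is whether the same gene differs between parts of the hippocampus within 1 way of preparing the section. Of 34 tests of the members, edgeR's quasi-likelihood test with Benjamini-Hochberg adjustment over all genes passed 7 at an adjusted p under 0.05, namely 6 for Sumo2, 1 for Ubb and 0 for Sumo3. In fresh-frozen HCl the share of all genes passing was 17% for CA1 over DG, 8.99% for CA3 over DG and 9.13% for CA1 over CA3. It was 10.1%, 7.91% and 4.4% in fresh-frozen TE, 8.14%, 9.27% and 7.2% in PFA frozen and 3.29%, 3.21% and 2.36% in PFA paraffin. The log2 fold changes from these fits are shrunken slightly by the prior count, and the approximate SEs are computed from these shrunken values.

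Sumo2 was higher than in DG in both CA regions of fresh-frozen HCl and PFA frozen sections and in CA1 of PFA paraffin. In fresh-frozen HCl, CA3 exceeded DG by 4.41 ± 0.78 on the log2 scale (adjusted p = 0.000428), from 48 against 1 UMIs and a pooled ratio of 28.5 (4.88 to 1150). CA1 exceeded DG by 3.04 ± 1.09 (adjusted p = 0.0478), from 13 against 1 UMIs. Without CA1 replicate 4 this adjusted p was 0.1, and it was 0.139, 0.176 and 0.0762 without DG replicates 2, 3 and 4, within a range of 0.0213 to 0.176 over the alternatives. Without DG replicate 1, which held the single DG UMI, the fitted values against a group at 0 were 4.79 for CA1 and 6.40 for CA3, neither of which is a bound. CA1 and CA3 there differed by −1.33 ± 0.50 (adjusted p = 0.0941), which passed without CA1 replicate 4 (−1.68, adjusted p = 0.0304). The oligodendrocyte markers were lower in DG as well, but by the median highest in CA1, unlike Sumo2. Their summed CPM was 8660 to 17700 in CA1, 6310 to 9210 in CA3 and 3000 to 4990 in DG, with none of the 5 at 0. In fresh-frozen TE, where no region difference of Sumo2 passed, they summed to 5490 to 9320 CPM in CA1, 5120 to 6870 in CA3 and 2340 to 3190 in DG. Their part in the result was not tested.

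In PFA frozen sections, Sumo2 was 3.03-fold higher in CA3 than in DG (log2 1.60 ± 0.27, adjusted p = 5.5e-07) and 2.22-fold higher in CA1 than in DG (log2 1.15 ± 0.29, adjusted p = 0.00228). With every replicate thinned to 35932 UMIs the CA1 value was 1.50 with an adjusted p of 0.0805, the highest of its alternatives, which began at 0.000541. CA1 and CA3 differed by −0.42 ± 0.27 (adjusted p = 0.464). Oligodendrocyte markers summed to 6810 to 14900 CPM in CA1, 2670 to 5460 in CA3 and 1740 to 2660 in DG, higher in both CA regions than in DG, as Sumo2 was. Their part in the result was not tested. In PFA paraffin, CA1 exceeded DG by 5.13 ± 0.66 (adjusted p = 3.62e-12; pooled ratio 48.4, 12.5 to 415) and CA3 by 4.40 ± 0.73 (adjusted p = 8.07e-07; ratio 27.2, 7.02 to 233). The paraffin CA1 library held 37 Sumo2 UMIs, against 2 in each of the others, although it was the shallowest of the 3, where 3 UMIs are 14.34 CPM over its replicates. Oligodendrocyte markers summed to 12100 to 20500 CPM in paraffin CA1, 7970 to 17100 in CA3 and 5240 to 15800 in DG, highest in CA1 by the median as well, and their part in the result was not tested. CA3 over DG held too few UMIs to be tested. In fresh-frozen TE the 3 comparisons gave −0.18 to 0.06 with approximate SEs of 0.83 to 0.89, which leaves differences of several-fold undetectable.

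Whether the region difference of Sumo2 itself differed between conditions was tested in 1 fit over all 48 replicates. For CA1 over DG the difference between PFA paraffin and fresh-frozen TE was 5.42 ± 1.35 on the log2 scale (adjusted p = 0.027), where 0.477% of all genes passed. After thinning to 35932 UMIs it was 8.13 with an adjusted p of 0.326, and the other alternatives began at 0.00415. For CA3 over DG the difference between fresh-frozen HCl and TE was 4.32 ± 1.29 (adjusted p = 0.342, with 0.106% of genes passing). The other 4 contrasts of Sumo2 gave 0.91 to 2.93 with adjusted p of 0.37 to 0.975, where 0.741%, 0.0953%, 0.122% and 0.334% of genes passed.

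Sumo3 leaned the other way, with a lower estimate in the CA regions than in DG in all 8 comparisons with DG, none of which passed. CA1 over DG was −0.91 ± 0.38 (adjusted p = 0.13) in PFA frozen, −0.74 ± 0.56 (adjusted p = 0.616) in PFA paraffin and −0.70 ± 0.26 (adjusted p = 0.0517) in fresh-frozen HCl. The last passed in 5 of the alternatives, with an adjusted p of 0.0318 to 0.0471, among them without CA1 replicate 3 (−0.90) and without DG replicate 1 (−0.80). CA3 over DG in fresh-frozen HCl was −0.55 ± 0.21 (adjusted p = 0.117) and passed with the replicate number as a block (−0.56, adjusted p = 0.0235), the 4 numbers of these libraries deviating together. The other 4 estimates against DG were −0.32 to −0.22, and CA1 over CA3 gave −0.62 to 0.07. None of the 6 interaction contrasts of Sumo3 passed, the lowest adjusted p being 0.641.

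Ubb passed in 1 comparison, CA1 over DG in fresh-frozen HCl, at 3.01 ± 0.62 (adjusted p = 0.000433) from 41 against 4 UMIs, a pooled ratio of 8.87 (3.21 to 34.1). It passed there without each of the 8 replicates in turn, at 2.77 to 3.24. The oligodendrocyte markers of this condition, given above for Sumo2, fell in the same order as the Ubb means, with medians of 9640 CPM in CA1, 7930 in CA3 and 3340 in DG, and their part in the result was not tested. CA1 over CA3 in the same condition was 1.17 ± 0.44 (adjusted p = 0.0947), and 1.56 (adjusted p = 0.0361) without CA3 replicate 4. CA3 over DG was 1.84 ± 0.75 (adjusted p = 0.139). The estimates in fresh-frozen TE were 0.37 ± 0.72 and −0.00 ± 0.56 against DG and 0.38 ± 0.61 for CA1 over CA3, those against DG in PFA frozen 1.09 ± 0.71 and 1.15 ± 0.70, and CA3 over DG in paraffin 1.99 ± 0.99 (adjusted p = 0.333). CA1 over DG in paraffin, with 6 against 3 UMIs, was not tested. None of the 6 interaction contrasts of Ubb passed, the largest being 2.55 ± 1.03 (adjusted p = 0.301) for CA1 over DG between fresh-frozen HCl and TE.

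**Figure D3:**
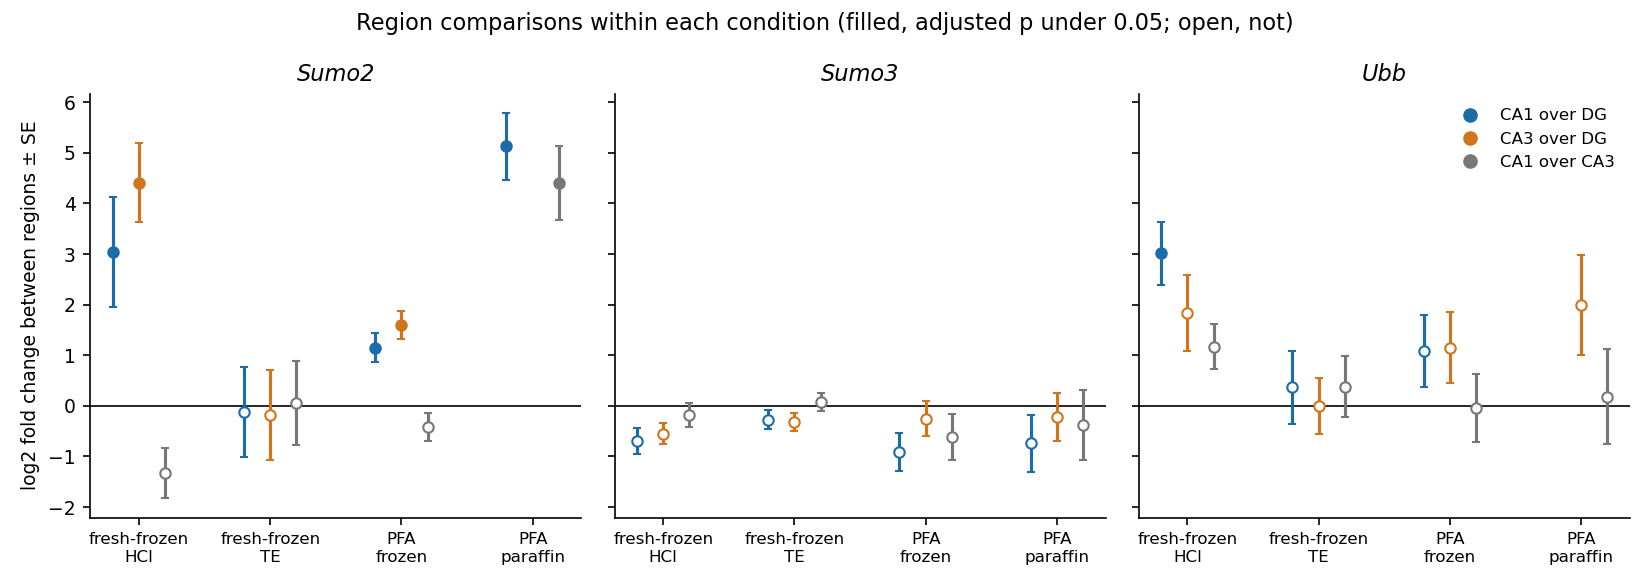
Log2 fold change between regions ± approximate SE (vertical axis) for Sumo2, Sumo3 and Ubb within each condition. Filled points passed an adjusted p under 0.05 and open points did not, and comparisons with too few UMIs are missing. Sumo2 is at 1.15 to 5.13 in its 6 filled points, Sumo3 lies below 0 against DG throughout, and Ubb has 1 filled point at 3.01.

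The row of Ubb-ps carried more UMIs than that of Ubb. It stood at 19.3 to 45.3 CPM in all fresh-frozen TE replicates and at 240 to 324 CPM in CA1, 466 to 579 in CA3 and 270 to 380 in DG of PFA frozen sections. In PFA paraffin it reached 384 to 636 CPM in CA1, 670 to 1128 in CA3 and 276 to 342 in DG. CA3 was thus the highest region of Ubb-ps in both fixed conditions, with no overlap with the other 2 regions. Its log2 fold change over DG in CA3 was 0.69 ± 0.19 in PFA frozen (adjusted p = 0.00595) and 1.45 ± 0.26 in PFA paraffin (adjusted p = 4.44e-05). CA1 over CA3 was −0.86 ± 0.21 in PFA frozen (edgeR adjusted p = 0.00227). In PFA paraffin it was −0.57 ± 0.29 and did not pass (edgeR adjusted p = 0.413).

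Across conditions, Ubb-ps changed by 3.41 ± 0.15 from fresh-frozen TE to PFA frozen, 20 from the top of the same selected 3956 genes. This value too is therefore a description of a row picked for its sequence. In fresh-frozen HCl it was 1.73-fold higher in CA1 than in DG (log2 0.79 ± 0.24, adjusted p = 0.0152), the direction of Ubb. Gm8797 held 15 of its 22 UMIs in fresh-frozen HCl DG, the group in which Ubb was lowest. Ubb made up 10.3% of the UMIs of Ubb, Ubb-ps and Gm8797 in fresh-frozen HCl, 10.2% in fresh-frozen TE, 5.7% in PFA frozen and 3.31% in PFA paraffin, as means of 12 replicates.

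The 3 rows were also summed in each replicate before the fit, an analysis chosen after the values were seen. Since Ubb gave so small a share of the sum, the sum had to follow Ubb-ps and is no test of Ubb. CA1 over DG in fresh-frozen HCl was 0.82 for the sum and CA3 over DG there −0.03, compared with 3.01 and 1.84 for Ubb alone. CA3 over DG was 0.71 in PFA frozen and 1.46 in PFA paraffin, close to the values of Ubb-ps. Reads that align to both Ubb and Ubb-ps were not counted, so neither the single rows nor their sum holds all tags of the family.

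**Figure D4:**
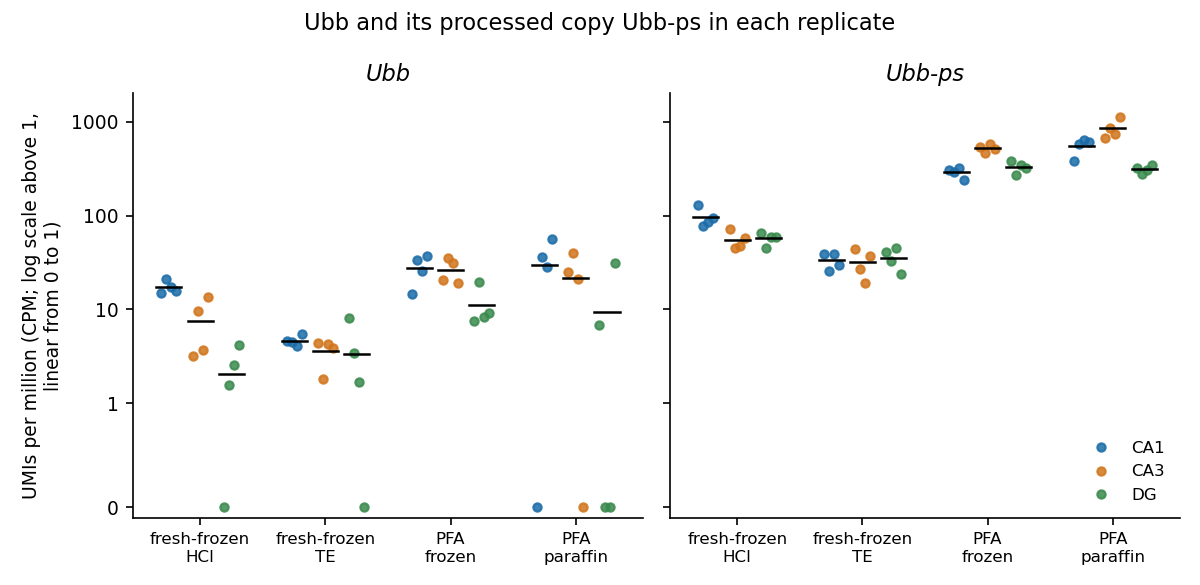
CPM of Ubb and of its processed copy Ubb-ps (vertical axis, log scale above 1 and linear from 0 to 1) in each replicate by condition and region. Lines are means of 4 replicates. Ubb-ps lies above Ubb in every group and is highest in CA3 of both fixed conditions. The means of Ubb in CA1 and CA3 of PFA frozen sections are close, at 27.5 and 26.5 CPM.

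The other ubiquitin-like precursors gave a mixed picture. Of 16 listed, 14 were tested for PFA frozen over fresh-frozen TE, with 9 higher and 3 lower at an adjusted p under 0.05, or 85.7% against 48.7% of all genes, and a median of 0.57, against −0.39 over all genes. Nedd8, which activates cullin ligases, rose by 1.08 ± 0.16 (adjusted p = 1.03e-08). Rps27a, a ubiquitin fused to a ribosomal protein, fell by 1.15 ± 0.17 on the log2 scale (adjusted p = 2.16e-08). Map1lc3a and Gabarapl1, which tag autophagosomes, were higher by 1.37 ± 0.19 and 1.25 ± 0.11, whereas their relative Map1lc3b was lower, at −1.18 ± 0.13. For paraffin over PFA frozen, 10 of 14 passed, 1 higher and 9 lower, or 71.4% against 28% of all genes, with Nedd8 at −0.87 ± 0.21. For fresh-frozen HCl over TE, 5 of 16 passed, 1 higher and 4 lower, or 31.2%, near the 30.6% of all genes. Rps27a had the lowest value there, −2.29 ± 0.17 (adjusted p = 1.55e-15). Rps27a has processed copies too. Rps27a-ps3 is 99.8% identical over 471 bases that end 34 bases before the 3′ end of Rps27a. Reads that align to both are not counted. How far this moved the values of Rps27a, here and between regions, was not tested.

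Between regions, Rps27a was higher in CA1 (1.55 ± 0.39, adjusted p = 0.00404) and CA3 (1.56 ± 0.40, adjusted p = 0.0112) than in DG of fresh-frozen HCl, as were Fau (2.53 ± 0.61 and 2.44 ± 0.59), which also encodes a ribosomal fusion, and Gabarap (1.40 ± 0.33 and 1.26 ± 0.34). Nedd8 was lower in CA1 than in CA3 of PFA frozen sections (−1.11 ± 0.32, adjusted p = 0.0104).

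Over all 6 lists of the SUMO and ubiquitin pathways with their heat shock genes, 85 genes in all, 48 of 82 tested passed for PFA frozen over fresh-frozen TE (27 higher, 21 lower; 58.5% against 48.7% of all genes), 45 of 84 for fresh-frozen HCl over TE (11 higher, 34 lower; 53.6% against 30.6%) and 33 of 80 for paraffin over PFA frozen (8 higher, 25 lower; 41.2% against 28%). Among SUMO enzymes, 7 of 10 passed for HCl over TE (70%, against 30.6% of all genes), 1 higher and 6 lower, with the E1 subunit Sae1 at −1.19 ± 0.19 (adjusted p = 2.13e-06) and the E3 ligase Pias4 at 1.28 ± 0.19 (adjusted p = 5.68e-07). Among SUMO proteases and SUMO-targeted ligases, 6 of 11 passed for PFA frozen over fresh-frozen TE (54.5%, near the 48.7% of all genes), 3 higher and 3 lower, with the ligase Rnf4 at 1.30 ± 0.23 (adjusted p = 1.67e-06) and the protease Senp5 at −1.29 ± 0.20 (adjusted p = 5.59e-08). Among deubiquitinases 7 of 14 (50%) passed, 4 higher and 3 lower, from Usp9x at −2.88 ± 0.28 (adjusted p = 1.52e-15) to Uchl3 at 2.05 ± 0.25 (adjusted p = 3.52e-11). Among ubiquitin E1 and E2 enzymes 12 of 22 (54.5%) passed, 5 higher and 7 lower, with the E2 Ube2n at 1.26 ± 0.16 (adjusted p = 4.21e-11). The shares of the last 3 lists lay near that of all genes.

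In the region comparisons 0 to 19 of the listed genes passed. For CA1 over DG in fresh-frozen HCl, 19 of 82 passed, 16 higher and 3 lower, or 23.2% against the 17% of all genes. Hspa8, a constitutive HSP70 chaperone, was higher there in CA1 (2.46 ± 0.37, adjusted p = 3.37e-06) and in CA3 (1.71 ± 0.34, adjusted p = 0.00156) than in DG. For CA3 over DG in PFA frozen sections 4 of 9 heat shock genes passed, all higher (44.4%, against 9.27% of all genes), among them Hsp90aa1 at 1.94 ± 0.16 (adjusted p = 6.52e-32). The SUMO protease Desi1 was higher than in DG in fresh-frozen TE CA1 (1.00 ± 0.20, adjusted p = 0.000399) and CA3 (1.15 ± 0.19, adjusted p = 8.2e-05). In PFA paraffin CA1, the protease Senp6 was lower than in DG (−1.84 ± 0.44, adjusted p = 0.00237) and Ube2m, the E2 of NEDD8, higher (4.18 ± 0.81, adjusted p = 5.31e-05).

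Over the 12 group means, on log2(CPM + 10), the genes most like Sumo2 among 6568 were Kpna3 (Pearson r = 0.923), Psmd14 (0.896) and Ptrhd1 (0.895). Those most like Sumo3 were Hnrnpc (0.914), Ccni (0.906) and Eif4g2 (0.902), and those most like Ubb were Hsd17b11 (0.935), Actg1 (0.924) and Dcun1d5 (0.913). Sumo2 and Ubb had r = 0.812 with each other, whereas Sumo3 had r = −0.402 with Sumo2 and −0.687 with Ubb. Ubb-ps was most like Rpl28-ps1 (0.988), Tpm3-rs7 (0.984) and Rpl17-ps3 (0.981), of which the first and the third are processed pseudogenes. The 12 points share conditions and depth, so these values describe the table only.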

How the data were processed

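Section RNA was measured by photo-isolation chemistry with CEL-seq2 in 12 libraries of 4 barcoded replicates. The authors assigned barcodes and 6-base UMIs with UMI-tools 1.0.0, aligned to GRCm38 with HISAT2 2.1.0, assigned reads to genes with featureCounts 1.6.4 and deposited raw UMI counts per gene, which were used as deposited. By its defaults featureCounts leaves out reads with several alignments and reads shared by overlapping genes and does not use strand. The submitters' processing notes also name DESeq2 1.20.0. The annotation release is not given in the sources used here.

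Counts were fitted with edgeR 4.0.16 (quasi-likelihood, TMM) in R 4.3.3, for genes with at least 10 UMIs in the replicates of a fit, with Benjamini-Hochberg adjustment over all genes tested. Each region comparison used 8 replicates of 1 condition, each condition comparison 24 replicates with region as covariate, and the 6 interaction contrasts all 48. These fits treated replicates as independent and had no term for library. The approximate SEs are the absolute log2 fold change divided by the square root of the quasi-likelihood F. The replicate totals of 35932 to 1111804 UMIs set the precision. The study states biological replicates, but the labels do not tie replicate numbers to animals. Samples were grouped by their titles. Ratios of pooled CPM carry exact 95% intervals for counting error. CPM, medians and shares were computed here. Fits were tested on simulated counts. Copies were searched with blastn 2.17.0 in the GENCODE M21 transcripts, and copied windows by exact match.

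The 3 genes, the pathway lists and the tests were chosen with earlier results of these data known. Named genes are the members, the listed precursors, annotated copies with at least 10 UMIs, the most changed called genes of each other list, and the 3 genes most like each member over 12 groups. Some listed precursors, and tests of shares that need them, are not reported here. Alternatives were DESeq2 1.42.0, its size factors, no filter on low counts, a replicate block, thinning to 35932 UMIs, correction for UMI saturation, 3 regions in 1 fit, leaving out each replicate, and other window lengths. Same-numbered replicates deviated together, with every correlation over 0.1, in 4 of 12 pairs of libraries, namely CA3 and DG of fresh-frozen HCl and the 3 pairs of fresh-frozen TE.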

Additional observations from a re-analysis of the deposited data

Results flagged for a closer look

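In 5 of 48 groups of 4 replicates, over Sumo2, Sumo3, Ubb and Ubb-ps, 1 replicate stood apart from the other 3 by Dixon's criterion. The criterion flags about 1 in 20 groups of normally distributed values by chance. That rate does not carry over to groups of a few UMIs, such as those of Sumo2 here. For Sumo2 the flagged values included the highest in fresh-frozen HCl DG (2.84 CPM, 1 UMI, with the others at 0). The lowest in fresh-frozen TE CA1 (1.15 CPM) and in fresh-frozen TE DG (0 CPM) were flagged too. For Sumo3 the flagged value was the highest in PFA paraffin CA1 (139 CPM, from 5 UMIs). For Ubb it was the highest in PFA frozen DG (19.5 CPM, from 6 UMIs).

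The CA1 over DG difference of Sumo2 was larger in PFA paraffin than in fresh-frozen TE by 5.42 on the log2 scale (interaction contrast, edgeR adjusted p = 0.027). The CA3 over DG difference of Ubb-ps was larger in PFA paraffin than in fresh-frozen TE by 1.59 (adjusted p = 0.0097).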

How the results depend on the processing

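The calls of Sumo2 in PFA paraffin held in every alternative that gave an adjusted p. So did those of Sumo2 CA3 over DG in PFA frozen and fresh-frozen HCl and of Ubb CA1 over DG in fresh-frozen HCl. After thinning, these fresh-frozen HCl comparisons of Sumo2 and Ubb held too few UMIs to be tested. No difference that passed the threshold changed sign. Some that did not pass changed sign without 1 replicate, among them Sumo2 CA3 over DG in fresh-frozen TE (−0.68 to 0.13) and Ubb CA1 over CA3 in PFA paraffin (−0.14 to 0.58). Sumo2 CA1 over DG in fresh-frozen HCl (3.04) was 3.06 with an adjusted p of 0.0547 without the filter on low counts and 2.49 to 4.79 without 1 replicate. Thinned to 35932 UMIs, Sumo2 was 1.50 for CA1 over DG in PFA frozen (adjusted p = 0.0805), 4.57 for PFA frozen over fresh-frozen TE and 8.13 for the paraffin interaction (adjusted p = 0.326). Sumo2 CA1 over CA3 in fresh-frozen HCl was −1.68 to −1.01 without 1 replicate. Sumo3 CA1 over DG there passed with DESeq2's size factors (−0.72), the replicate block (−0.71) and 3 regions in 1 fit (−0.70), and was −0.90 to −0.52 without 1 replicate. With the replicate block, Sumo3 CA3 over DG (−0.56) and Ubb CA1 over CA3 (1.39) in fresh-frozen HCl passed as well, and the block changed no other call of the members. Of 48 correlations of same-numbered replicates, 33 were over 0.1. Ubb CA1 over CA3 in fresh-frozen HCl was 0.93 to 1.56 without 1 replicate. With Ubb, Ubb-ps and Gm8797 summed, an alternative chosen after seeing the data in which Ubb is a small share and which is therefore no test of Ubb, it passed at 0.83, as did PFA frozen CA3 over DG (0.71) and CA1 over CA3 (−0.81) and paraffin CA3 over DG (1.46), PFA frozen over fresh-frozen TE was 3.33, and Ubb CA3 over DG in fresh-frozen HCl went from 1.84 to −0.03, where neither value passed. DESeq2 gave no adjusted p for 22 member comparisons, among them Sumo2 CA1 and CA3 over DG in fresh-frozen HCl (3.36 and 4.42). Except where an alternative uses fewer UMIs, replicates or genes, the cause was not tested.

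Copied windows of Sumo2 were 23.34% and 19.85% at 75 and 100 bases and 34.03% with 1 mismatch allowed, and 2.817%, 0% and 13.97% in its last 500 bases. Those of Sumo3 were 1.666% with 1 mismatch. Those of Ubb were 56.77%, 52.43% and 66.55%, and 53.29%, 44.14% and 77.38% in the last 500 bases.

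Over all genes, the replicate block raised the calls for CA3 over DG in fresh-frozen HCl from 1363 to 2619, and in fresh-frozen TE from 1420 to 2262 for CA1 over DG, from 1138 to 1946 for CA3 over DG and from 640 to 1222 for CA1 over CA3. Thinning left 53 to 245 calls in the fresh-frozen region comparisons, against 640 to 2526, 123 to 224 in the fixed ones, against 177 to 867, and 730, 2672 and 1479 between conditions, against 5550, 7733 and 3419. DESeq2 made 1616 calls for CA1 over DG in fresh-frozen HCl, against 2526, and 86 to 445 in the fixed region comparisons.

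After thinning, the pathway genes called in fresh-frozen HCl were 0, 0 and 2 for CA1 over DG, CA3 over DG and CA1 over CA3, against 19, 7 and 12. Fresh-frozen TE gave 0 and 0 against DG, compared with 8 and 5, PFA frozen 0, 3 and 2, compared with 2, 9 and 5, and PFA paraffin 1, 1 and 0, compared with 4, 5 and 1. The condition comparisons gave 9, 22 and 9, compared with 45, 48 and 33. Calls over all genes fell under thinning as well, there to 730, 2672 and 1479 from 5550, 7733 and 3419. A fall in these counts is therefore not particular to the lists. DESeq2 gave 11 for CA1 over DG in fresh-frozen HCl, 3 and 3 in fresh-frozen TE against DG, 1 for CA1 over DG and 2 for CA1 over CA3 in PFA frozen, and 1, 0 and 0 in PFA paraffin. Its size factors gave 3 for CA3 over DG in fresh-frozen TE and 1 for CA1 over DG in PFA frozen. Without the filter, CA1 over DG and CA1 over CA3 in PFA frozen gave 1 and 3 and CA3 over DG in PFA paraffin 3. All-gene calls there were 602, 464 and 227, against 764, 597 and 301. The replicate block gave 15 for CA3 over DG in fresh-frozen HCl, 8 and 2 for CA3 over DG and CA1 over CA3 in fresh-frozen TE (5 and 0 without it) and 2 for CA1 over CA3 in PFA paraffin. With the block, all-gene calls rose too, as given above for the fresh-frozen comparisons, and from 177 to 240 for CA1 over CA3 in PFA paraffin. Correction for saturation gave 11 for CA3 over DG in fresh-frozen HCl and 1 for CA1 over DG in PFA frozen. All-gene calls there were 1401 and 760, against 1363 and 764.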
